A study of Mus musculus with 6 samples.

Results

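The granins and the genes of prohormone processing were followed in CAD cells supplied with the brain-enriched microRNA miR-124. All 9 probe sets that the platform annotation assigns to Chga, Chgb, Scg2, Scg3, Vgf, Scg5, Pcsk1 and Cpe were taken, each on its own, of 45101 on the array, 45037 of them not controls. These 8 genes are among 18193 that the annotation gives a probe set of their own. Cpe had 2 probe sets and the other 7 genes had 1 each. CAD is an established mouse line of catecholaminergic origin, which the labels call a neuroblastoma line and which derives from a single tumour line. The 3 miR-124a-2 arrays held RNA of CAD cells transfected with the RIPmiR-124a-2 plasmid, which expresses the precursor miR-124a-2, and the 3 empty vector arrays held RNA of CAD cells transfected with the RI vector alone. Both groups were thus transfected, both were grown in serum, and the labels give neither the share of cells that took up a plasmid nor the time of harvest. The labels call the 3 samples of each group biological replicates without saying more of their origin.

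Granins are acidic proteins of the regulated secretory pathway. They gather in the trans-Golgi network with peptide hormones, catecholamines and calcium, help dense-core secretory granules to form, and are themselves cut into bioactive peptides. The cutting is done at pairs of basic residues by prohormone convertases such as PC1/3, the product of Pcsk1, and carboxypeptidase E, the product of Cpe, then removes the exposed basic residues. In chromaffin cells and catecholaminergic neurons the granins are stored and released together with catecholamines, and they are widely used as markers of neuroendocrine cells.

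None of the 9 probe sets changed at an adjusted p under 0.05 (limma, Benjamini-Hochberg adjustment over 45037 probe sets), where 0.269% of all probe sets did. The highest log2 fold changes were 0.49 for Cpe in probe set 1415949_at and 0.46 for Scg5, and the lowest was -0.14 for Cpe in its other probe set, 1439437_x_at. Between them lay Scg2 (0.27), Scg3 (0.17), Pcsk1 (0.17), Chga (0.12), Chgb (0.03) and Vgf (-0.10). At an unadjusted p under 0.05 there were 2 probe sets, Cpe 1415949_at and Scg5, both higher with miR-124a-2 (8.19% of all probe sets in either direction and 3.43% higher). In 3 of the 9, Cpe 1415949_at, Scg5 and Pcsk1, every miR-124a-2 array was above every empty vector array, as in 6.28% of all probe sets, and in 0 every miR-124a-2 array was below. The median log2 fold change of the 9 was 0.17, against 0.0023 over all probe sets, with 7 above 0 and 2 below (50.7% of all probe sets were above 0). A 2-fold change in either direction lay outside the 95% interval of each of the 9, the highest upper limit being 1.66-fold and the lowest lower limit 0.704-fold.

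Some technical measures split the arrays across the groups. The interquartile range of log2 signals was 3.06 to 3.10 in miR-124a-2 replicates 1 and 2 and empty vector replicate 1 (narrow arrays), and 3.26 to 3.35 in the other 3 (wide arrays). Spiked-in poly-A controls had mean log2 signals of 5.97 on miR-124a-2 replicate 1 and 5.96 on empty vector replicate 1, against 5.57 to 5.71 on the remaining 4 arrays. On the same replicate 1 arrays the transferrin receptor control had 3′ minus 5′ log2 signals of 1.55 (miR-124a-2) and 1.34 (empty vector), against 0.95 to 1.09 elsewhere. The splicing repressor gene Ptbp1, a known miR-124 target used to check the labels, had 10.78 ± 0.22 with miR-124a-2 and 12.02 ± 0.04 with the empty vector (log2 signal, SD, n = 3 each, adjusted p = 0.0179) in its brightest probe set, 1424874_a_at. That call was lost without any array but miR-124a-2 replicate 3 (adjusted p from 0.0561 to 0.168 in those 5 fits). Without miR-124a-2 replicate 1, or without any 1 empty vector array, 0 of all probe sets passed, so those fits could keep no call. Of the 3 Ptbp1 probe sets, 1 had a higher mean with miR-124a-2. MiR-124 itself was not analysed here. Fewer cells expressing a gene and less of its RNA per cell cannot be told apart in these bulk samples.

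Chga encodes chromogranin A, the granin measured in blood as a marker of neuroendocrine tumours. Its probe set 1418149_at had log2 signals of 8.90, 8.60 and 8.69 in miR-124a-2 replicates 1 to 3, and 8.77, 8.51 and 8.53 in empty vector replicates 1 to 3. The groups overlapped, replicate 1 was the highest array of each, and the log2 fold change was 0.12 ± 0.12 (SE, 95% interval -0.15 to 0.40, adjusted p = 0.902).

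Chgb encodes chromogranin B, the other chromogranin of chromaffin granules. Its log2 signals (1415885_at) were 12.25, 12.10 and 12.23 with miR-124a-2, and 12.38, 12.03 and 12.07 with the empty vector. Empty vector replicate 1 exceeded all other arrays, and the remaining 5 ran from 12.03 to 12.25. For Chgb the log2 fold change was 0.03 (SE 0.12, 95% interval -0.24 to 0.31, adjusted p = 0.987), being -0.21 among narrow and 0.18 among wide arrays.

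Scg2 encodes secretogranin II, the precursor of secretoneurin. Its log2 signals (1450708_at) were 10.40, 10.82 and 10.83 with miR-124a-2, and 10.14, 10.53 and 10.59 with the empty vector. Replicate 1 was the lowest array of each group, and the groups overlapped because miR-124a-2 replicate 1 was below empty vector replicates 2 and 3. The log2 fold change was 0.27 ± 0.16 (SE, 95% interval -0.11 to 0.64, adjusted p = 0.787). It was 0.26 between the replicate 1 arrays and 0.27 between the other 4. The poly-A controls split the arrays in the same way. With that split as a block in limma, Scg2 had an unadjusted p of 0.0113 and an adjusted p of 0.221.

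Scg3 encodes secretogranin III, which binds chromogranin A and cholesterol-rich granule membrane. Its log2 signals (1448628_at) were 10.14, 10.33 and 10.36 with miR-124a-2, and 9.95, 10.17 and 10.19 with the empty vector. The order of the arrays was that of Scg2, with replicate 1 lowest in each group. Its log2 fold change of 0.17 ± 0.11 (SE, 95% interval -0.08 to 0.43) did not pass (limma, adjusted p = 0.800).

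Vgf encodes a precursor of several neuropeptides that is induced by nerve growth factor in PC12 cells. Its log2 signals (1436094_at) were 11.89, 12.10 and 12.29 with miR-124a-2, and 11.95, 12.27 and 12.35 with the empty vector. It was the only granin here with a lower mean in the miR-124a-2 group, and the groups overlapped almost completely. The log2 fold change was -0.10 (SE 0.14, 95% interval -0.43 to 0.24, adjusted p = 0.948), and 0.01 with the array set as a block.

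Scg5 encodes 7B2, a chaperone that the convertase PC2 needs to become active. Its log2 signals (1423150_at) were 8.72, 9.01 and 8.83 with miR-124a-2, and 8.32, 8.48 and 8.37 with the empty vector. Every miR-124a-2 array was above every empty vector array. The means were 8.85 ± 0.14 with miR-124a-2 and 8.39 ± 0.09 with the empty vector (SD, n = 3 each), or 1.38-fold higher with miR-124a-2. The log2 fold change of Scg5 was 0.46 ± 0.11 (SE, 95% interval 0.21 to 0.71), being 0.55 among narrow and 0.40 among wide arrays. It did not pass (limma unadjusted p = 0.00272, rank 686 of 45037, adjusted p = 0.178), and its adjusted p lay between 0.0588 and 0.623 over the 20 alternative settings.

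Pcsk1, the gene of PC1/3, was the dimmest of the 9. Its log2 signals (1421396_at) were 4.32, 4.49 and 4.41 with miR-124a-2, and 4.25, 4.22 and 4.25 with the empty vector. The groups did not overlap, but its mean lay below the median of all probe set means, 4.78, and above the highest mean of the trp controls, 3.63, whose transcript is not in the samples. The log2 fold change of 0.17 ± 0.09 (SE, 95% interval -0.05 to 0.38) did not pass (adjusted p = 0.747). No detection call was used, so it was not settled whether this probe set measured Pcsk1 RNA.

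Cpe had the smallest p of the 9. Its probe set 1415949_at had log2 signals of 10.79, 10.80 and 10.89 with miR-124a-2, and 10.17, 10.42 and 10.43 with the empty vector. The groups were well apart, and empty vector replicate 1 was the lowest array. The means were 10.83 ± 0.06 with miR-124a-2 and 10.34 ± 0.14 with the empty vector (SD, n = 3 each), or 1.40-fold higher with miR-124a-2. The log2 fold change of Cpe was 0.49 ± 0.11 (SE, 95% interval 0.24 to 0.73), being 0.62 among narrow and 0.47 among wide arrays. It did not pass in the main limma comparison (unadjusted p = 0.00166, rank 513 of 45037, adjusted p = 0.145). Once the array set (narrow or wide) entered limma as a block, Cpe passed (log2 fold change 0.55, adjusted p = 0.0371, where 1.13% of all probe sets passed). It also passed with an intensity trend in the variance, without or with robust estimation (adjusted p = 0.0488 and 0.0472). The range over the alternatives was 0.0371 to 0.626.

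The second Cpe probe set, 1439437_x_at, had a log2 fold change of opposite sign. It had log2 signals of 5.24, 4.79 and 5.12 with miR-124a-2, and 5.44, 5.16 and 4.98 with the empty vector. The groups overlapped, and the log2 fold change was -0.14 (SE 0.16, 95% interval -0.51 to 0.22, adjusted p = 0.917). Names ending in x_at mark probe sets whose probes may also match other transcripts, and the annotation gives no accession for it. The log2 difference of the first minus the second was 5.55, 6.01 and 5.77 with miR-124a-2, and 4.73, 5.26 and 5.45 with the empty vector. It was larger on every miR-124a-2 array, by 0.63 at the mean. The exact permutation test of this difference (two-sided, p = 0.1) could not have passed, since 20 splits of 6 arrays allow no smaller p. Averaging both probe sets left Cpe with 0.17 on the log2 scale (adjusted p = 0.626).

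**Figure D1:**
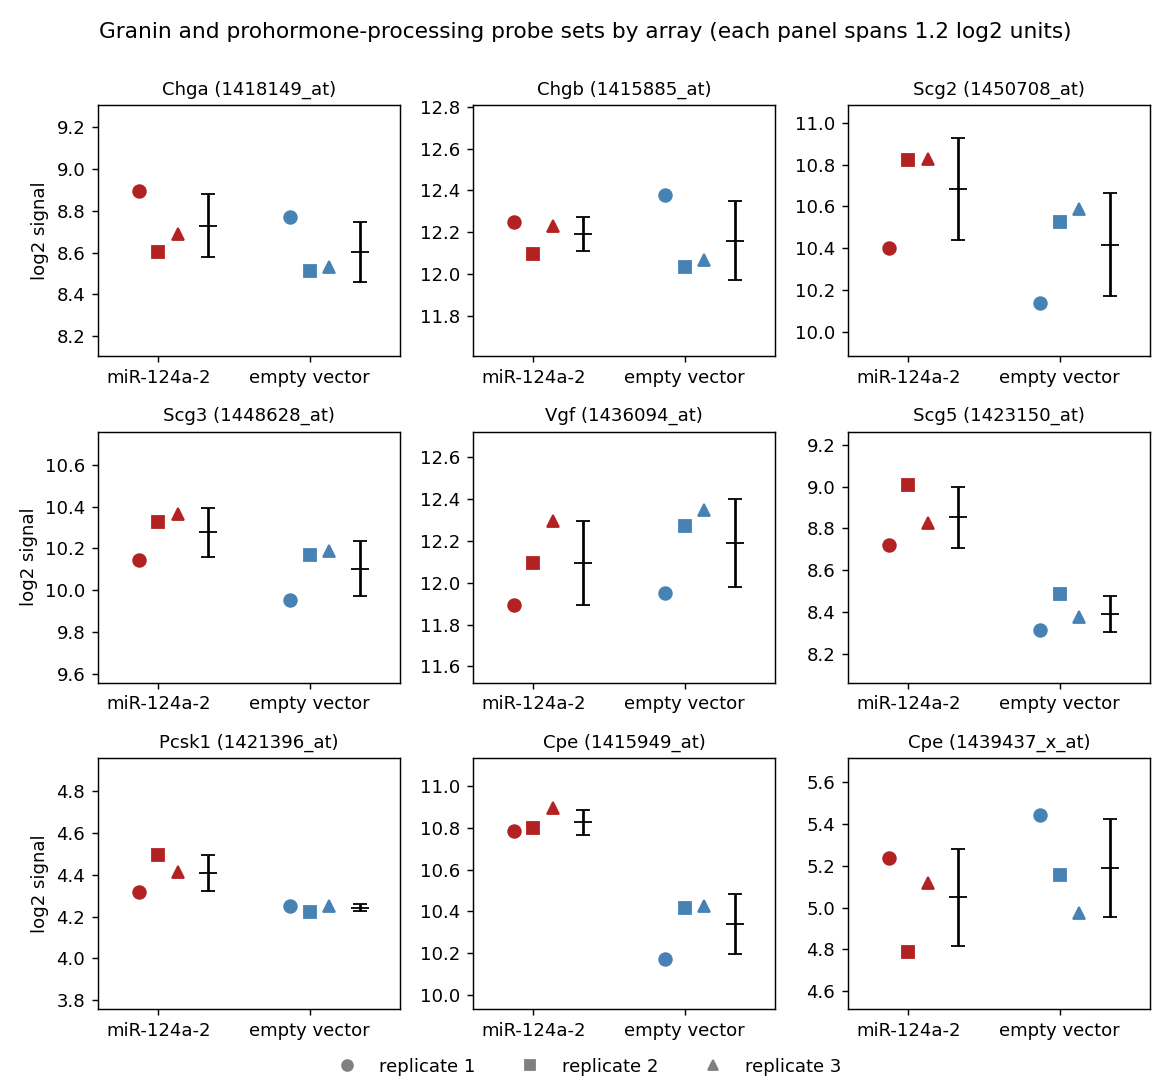
Log2 signal (y axis, each panel spanning 1.2 units) of the 9 probe sets on the miR-124a-2 arrays (red, left) and the empty vector arrays (blue, right), with the replicate number as the marker and the group mean ± SD in black (n = 3 each). The groups are apart for Scg5, Pcsk1 and Cpe 1415949_at and overlap in the other 6.

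**Figure D2:**
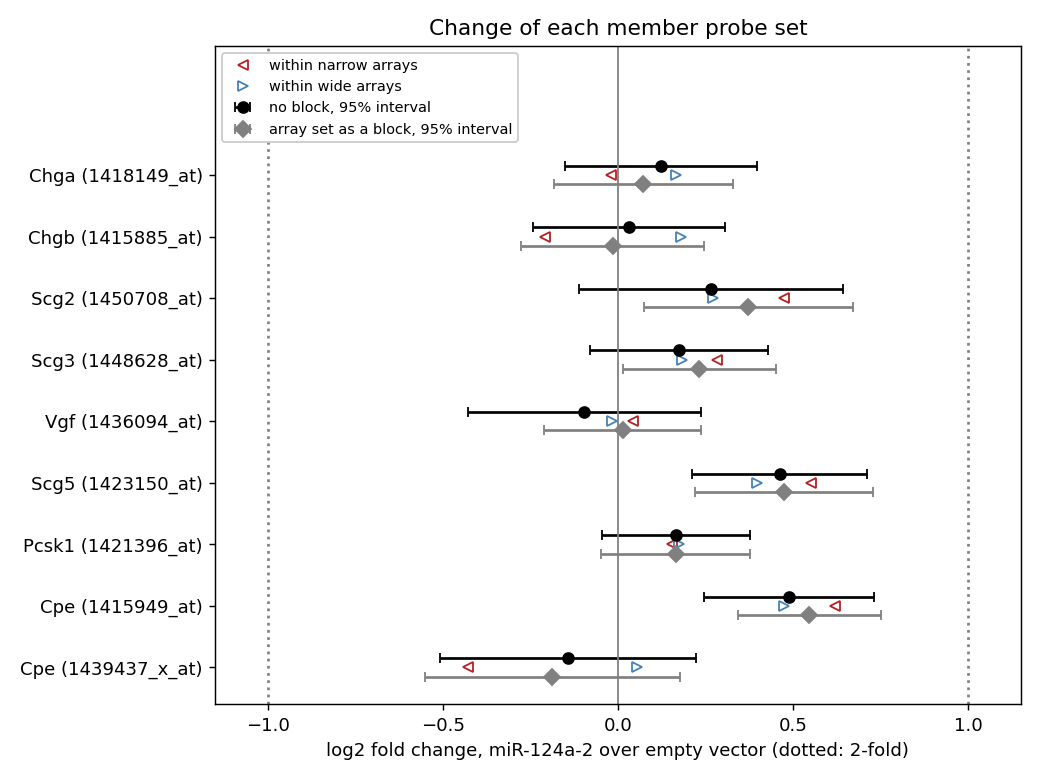
Log2 fold change of each probe set, miR-124a-2 over empty vector, with its 95% interval without a block (black) and with the array set as a block (grey). Values within narrow arrays (red) set miR-124a-2 replicates 1 and 2 against empty vector replicate 1. Values within wide arrays (blue) set miR-124a-2 replicate 3 against empty vector replicates 2 and 3. All intervals lie inside the dotted lines at 2-fold, and those of Scg5 and Cpe 1415949_at lie above 0 in both fits.

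For some granins the arrays of a group differed more among themselves than the groups did. With the array set as a block in limma, 4 of the 9 had an unadjusted p under 0.05, namely Cpe, Scg5, Scg2 (log2 fold change 0.37, adjusted p = 0.277) and Scg3 (log2 fold change 0.23, adjusted p = 0.364), all higher with miR-124a-2, as were 6.09% of all probe sets. Replicate 1 minus the mean of replicates 2 and 3 was -0.42 with miR-124a-2 and -0.42 with the empty vector for Scg2. This difference was -0.30 with miR-124a-2 and -0.36 with the empty vector for Vgf, and -0.20 with miR-124a-2 and -0.23 with the empty vector for Scg3. Chga ran the other way, with replicate 1 higher by 0.25 in both. For 6 of the 9 probe sets (Chga, Chgb, Scg2, Scg3, Vgf and Cpe 1439437_x_at) both of these differences exceeded the difference between the groups in size. The share of all probe sets for which this holds was not counted, so it is not shown to be particular to these genes. The replicate 1 arrays were also those with high poly-A controls and a high 3′ to 5′ ratio, and the part of either in these values was not tested.

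**Figure D3:**
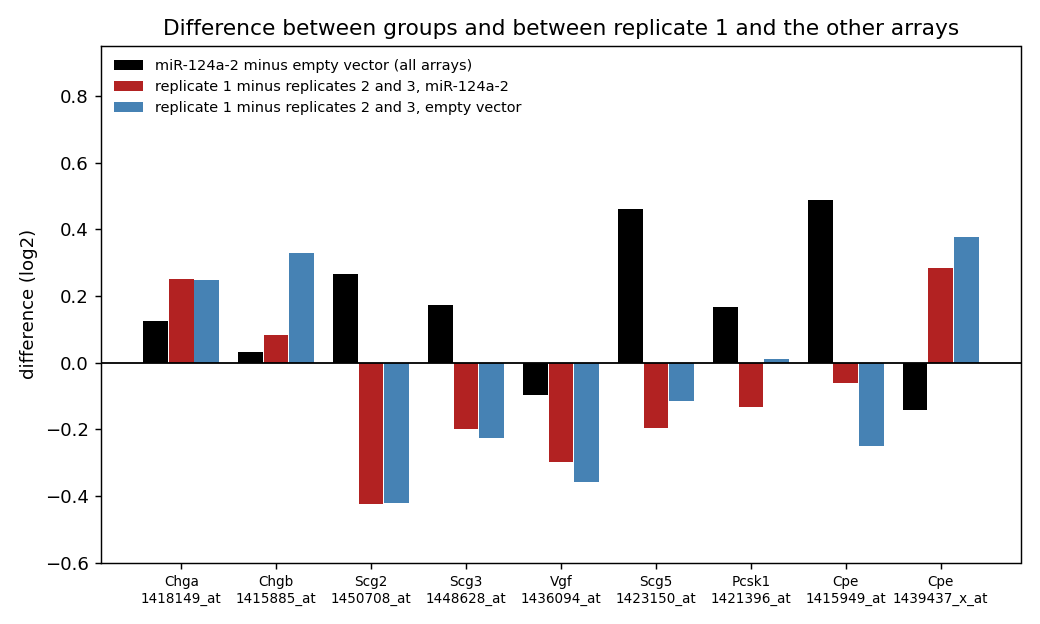
Differences in log2 signal (y axis) for each probe set: miR-124a-2 minus empty vector over all arrays (black), and replicate 1 minus the mean of replicates 2 and 3 within the miR-124a-2 group (red) and within the empty vector group (blue). Scg2 shows -0.42 in both groups beside a group difference of 0.27, whereas Cpe 1415949_at and Scg5 show group differences of 0.49 and 0.46 beside smaller replicate differences.

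Promoter sequence was compared because several of these genes are known to respond to cAMP through a cAMP response element near their start. RefSeq windows of 250 bases before to 50 bases after the start (GRCm38.p6) matched 6 of the 8 genes, all but Vgf and Cpe. The element was searched on both strands as the 8 bases TGACGTCA and as its first 6 bases, TGACGT, which the longer form contains. The longer form stood in 3 of the 6, Chgb, Scg2 and Pcsk1, and in 1.79% of 32851 mouse promoter windows. The shorter form stood in 5 of the 6, all but Scg3, and in 7.51% of all windows. Below, capitals mark the match in up to 30 bases of the gene's own strand, 5′ to 3′.
Chga, chr12:102554886-102554913, plus strand: gggcggtcctaTGACGTaatttcctggg
Chgb, chr2:132781559-132781588, plus strand: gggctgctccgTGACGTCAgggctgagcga
Scg2, chr1:79440076-79440105, minus strand: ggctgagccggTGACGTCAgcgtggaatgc
Scg5, chr2:113829250-113829277, minus strand: aaggaggtaaaTGACGTtcataggggtc
Pcsk1, chr13:75089768-75089797, plus strand: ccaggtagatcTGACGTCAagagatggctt
The match began 44 bases before the start in Chga, 72 in Chgb, 68 in Scg2, 175 in Scg5 and 78 in Pcsk1. Pcsk1 held a further shorter match 50 bases before its start, and Scg5 held one from base 40 after its start. The 3 genes with the longer form had log2 fold changes of 0.03 (Chgb), 0.27 (Scg2) and 0.17 (Pcsk1). Those with the shorter form alone had 0.12 (Chga) and 0.46 (Scg5), and Scg3, without a match in this window, had 0.17. None of these passed, and a relation between the match and the change was not tested. A match is a description of the sequence and does not show that a factor was bound.

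Over the 6 arrays, the genes outside the 8 whose signal was most like that of Cpe (1415949_at) were Inpp5f, Smarcd2 and Serinc3, with Pearson correlations of 0.999, 0.997 and 0.997. The arrays share their groups and array sets, and the correlations are a description only. Their log2 fold changes were 0.32, 0.23 and 0.43 and did not pass (adjusted p = 0.298, 0.528 and 0.197).

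Other genes of the same pathway were counted in 3 lists. Of 30 probe sets for 21 granin-related genes and neuropeptide precursors, 0 passed in limma (0.269% of all probe sets) and 1 had an unadjusted p under 0.05, or 3.33%, against 8.19% of all probe sets. Their median log2 fold change was 0.02. Only 11 of the 21 genes had a probe set above the median of all probe sets, so dim signal limits this count. The 1 with an unadjusted p under 0.05 was for Gnas. This locus encodes the stimulatory G-protein alpha subunit and, from another promoter, the granin-like protein NESP55. Probe set 1421740_at of Gnas had 6.17, 6.85 and 6.14 with miR-124a-2, and 5.36, 5.49 and 5.44 with the empty vector. Its log2 fold change was 0.95 (adjusted p = 0.107), and which Gnas transcript it reads is not given in the sources used here. The other 4 Gnas probe sets had values between -0.04 and 0.25. Npy, the precursor of neuropeptide Y, which noradrenergic cells co-release, had -0.36 (adjusted p = 0.745), with overlapping groups.

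Of 40 probe sets for 19 convertases, trimming and end-modifying enzymes and their partners, 0 passed in limma and 4 had an unadjusted p under 0.05, or 10%, near the 8.19% of all probe sets. All 4 were lower with miR-124a-2, as were 4.76% of all probe sets at this threshold. Pcsk2, the gene of PC2, was on the list, but the annotation gives it no probe set of its own, so it was not measured. The list median was 0.04. Of the 4, 3 were for Cpd, which encodes carboxypeptidase D, a trans-Golgi relative of Cpe that trims proteins of the constitutive pathway. All 7 Cpd probe sets had lower means with miR-124a-2 (log2 fold changes from -1.46 to -0.13). The one with the largest change, 1455009_at, had 5.11, 4.70 and 6.37 with miR-124a-2, and 6.46, 6.95 and 7.16 with the empty vector. The groups did not overlap, and miR-124a-2 replicate 3 came close to the empty vector arrays. Its log2 fold change of -1.46 (SE 0.39) did not pass (adjusted p = 0.256), but passed without miR-124a-2 replicate 3 (-1.95, adjusted p = 0.0146) and under the array set block (-1.12, adjusted p = 0.0473). Over its alternatives the adjusted p ran from 0.0146 to 0.775. The smallest adjusted p of the 7 was that of 1434547_at, which was brighter. It had 7.36, 7.22 and 7.54 with miR-124a-2, and 7.95, 8.12 and 7.98 with the empty vector. Its log2 fold change of -0.65 did not pass in the main fit (adjusted p = 0.0809) but passed under the array set block (adjusted p = 0.0390). Cpe (1415949_at) and Cpd stood on opposite sides of 0, and the difference between them was not tested. Ctsb, the lysosomal protease cathepsin B, had -0.47 in 1417491_at (adjusted p = 0.234), with 4 of its 5 probe sets above 0.

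Of 94 probe sets for 38 genes of dense-core vesicle biogenesis and exocytosis, 1 was higher with miR-124a-2, 1 was lower and 92 did not pass, where 0.0600% of all probe sets were called higher and 0.209% lower. At an unadjusted p under 0.05 there were 16, or 17.0%, against 8.19% of all probe sets, with 10 higher and 6 lower. Vamp2, the vesicle SNARE of regulated exocytosis, rose by 0.69 (1420834_at, SE 0.10, adjusted p = 0.0417). It had 8.39, 8.56 and 8.51 with miR-124a-2, and 7.87, 7.70 and 7.82 with the empty vector. Arfip1, the gene of arfaptin-1, a protein of the trans-Golgi that restrains granule budding, fell by 0.80 (1454916_s_at, SE 0.11, adjusted p = 0.0385). It had 8.16, 8.04 and 8.34 with miR-124a-2, and 9.09, 8.94 and 8.92 with the empty vector. Neither pair of groups overlapped. The Vamp2 call was lost without any one of the 6 arrays (adjusted p from 0.0513 to 0.301). That of Arfip1 was lost without any but miR-124a-2 replicate 3 (adjusted p from 0.112 to 0.243 in those 5 fits). Without miR-124a-2 replicate 1, or without any 1 empty vector array, 0 of all probe sets passed, so those fits could keep no call. Both calls were also lost with median centring (adjusted p = 0.0634 for Vamp2 and 0.0658 for Arfip1), and that of Vamp2 with the mean of its 2 probe sets (adjusted p = 0.196). Both held in limma with the replicate number, array set or poly-A split as a block (adjusted p from 0.0225 to 0.0327). They also held with quantile normalization, cyclic loess, an intensity trend, the filter on dim probe sets and the brightest probe set per gene. The second Vamp2 probe set, 1420833_at, also had a higher mean with miR-124a-2 (log2 fold change 0.84, adjusted p = 0.685). Its replicate 1 minus the mean of replicates 2 and 3 was -1.17 with miR-124a-2 and -1.23 with the empty vector. In limma with the poly-A split or the replicate number as a block it passed (adjusted p = 0.0159 and 0.0140). The list median was 0.04.

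**Figure D4:**
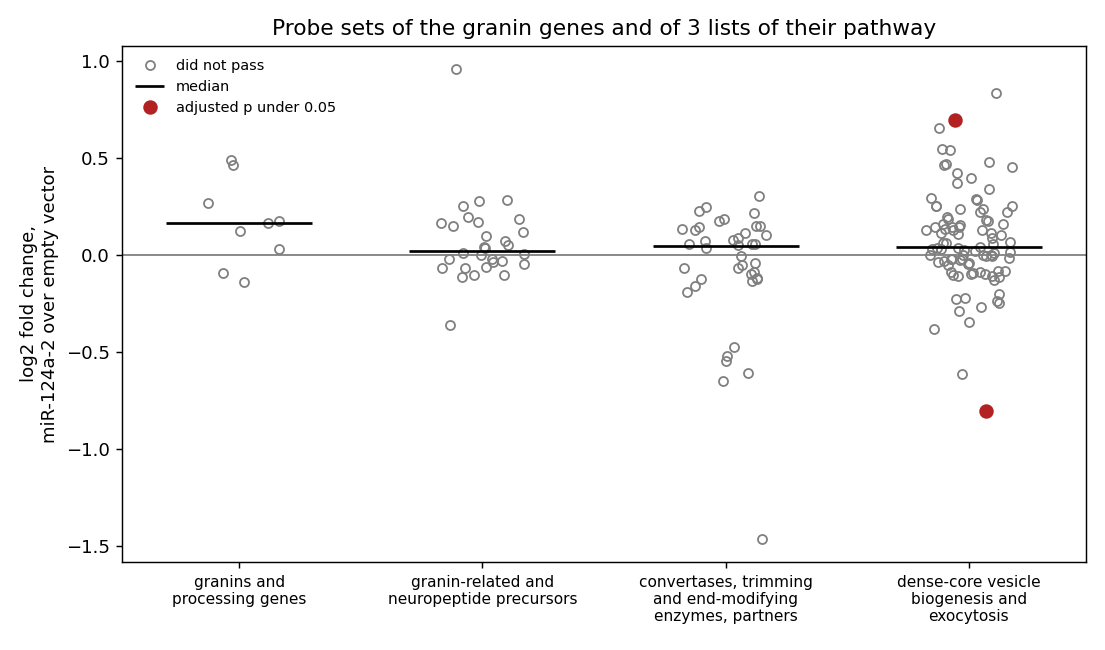
Log2 fold change (y axis, miR-124a-2 over empty vector) of each probe set of the granins and processing genes and of the 3 pathway lists, with probe sets that passed in red, others open and the median as a bar. The 2 that passed are Vamp2 at 0.69 and Arfip1 at -0.80, the lowest open point is Cpd at -1.46, and the 9 granin and processing probe sets lie between -0.14 and 0.49.

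Markers of the cell type were checked beside these values. Of 9 measured catecholaminergic and neuroendocrine genes, 8 had a probe set above the median of all probe sets, all but the vesicular monoamine transporter gene Slc18a2. Of their 16 probe sets 0 passed in limma, 5 had an unadjusted p under 0.05, all higher with miR-124a-2 (31.2%, against 3.43% of all probe sets), and the median log2 fold change was 0.26. Their summed linear signal was 11521 to 12092 on the miR-124a-2 arrays and 9443 to 10144 on the empty vector arrays. None of 71 probe sets for astrocyte, oligodendrocyte, fibroblast, leukocyte, endothelial and epithelial markers passed, and 4 had an unadjusted p under 0.05 (5.63%, against 8.19% of all probe sets), namely 3 of Krt8 and 1 of Cnp. All 4 were higher with miR-124a-2. The 3 of Krt8 were among 8 epithelial probe sets (37.5%), and the 1 of Cnp was among 14 oligodendrocyte probe sets (7.14%). Summed epithelial signal was 474 to 527 with miR-124a-2 and 378 to 504 with the empty vector, and summed oligodendrocyte signal was 425 to 475 with miR-124a-2 and 365 to 430 with the empty vector. No RMA value is 0. The part of these markers in the values of Cpe and Scg5 was not tested.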

How the data were processed

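RNA was measured in 6 samples, 3 per group, from 6 ug of total RNA each, per the labels. The authors deposited log2 signals, 1 per probe set and array, computed with RMA according to the submitters' processing notes. RMA corrects background, quantile-normalizes arrays and summarises probes. The deposited arrays still differed in spread, with interquartile ranges of log2 signals from 3.06 to 3.35. Its version, the probe definitions and any filter are not given in the sources used here. Arrays have no read depth, and their number limits the precision. The labels do not say that replicates came from separate cultures, so p-values measure the spread between these samples, which may be technical.

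Gene names came from the 2016 platform annotation (34945 probe sets with 1 gene, 932 with several and 9160 not listed). Control probe sets were left out. The main comparison used limma 3.58.1 (R 4.3.3): lmFit and eBayes without a block, two-sided tests, Benjamini-Hochberg adjustment over 45037 probe sets and a threshold of 0.05. Adjusted p-values, standard errors and 95% intervals are from this fit. The fit was run on simulated data with independent noise and no array sets. That run checked the recovery of planted changes, not the standard errors, the intervals or the effect of array sets. Alternatives were the replicate number, the array set or the poly-A split as a block. Array set and poly-A split were taken from the array signals, each divided at the largest gap between arrays. Others left out each array or used other scalings, an intensity trend, a filter on dim probe sets, 1 value per gene, or stricter thresholds.

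The members, lists and settings were chosen with earlier results of these data known. All members are named. From each pathway list up to 4 genes with the smallest adjusted p that passed were named, or, where none passed, the 2 with the largest change, together with Ptbp1 and the 3 genes most correlated with the member of smallest p. Others are named where a count singled them out after their values were seen.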

Additional observations from a re-analysis of the deposited data

How the results depend on the processing

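The count of 0 among the 9 granin and processing probe sets held in 17 of 20 alternatives in limma, with 1 to 3 at an unadjusted p under 0.05 in these. The count was 1 with the array set as a block, an intensity trend, or that trend with robust estimation, in each case Cpe (1415949_at). Several of the 17 could hardly have given another count. The 0.01 and 2-fold settings only tighten the main fit. Without miR-124a-2 replicate 1, without any 1 empty vector array, or with replicates 2 and 3 alone, 0 of all probe sets passed. The sign of Chgb turned with the array set as a block (-0.014) and in 2 fits that left out an array (range -0.033 to 0.14). The sign of Vgf turned with the array set as a block (0.013) and in 1 such fit (range -0.22 to 0.0039). The other 7 kept their sign in every alternative that was fitted for them. Without single arrays, Chga ranged from 0.04 to 0.21, Scg2 from 0.13 to 0.41, Scg3 from 0.10 to 0.24, Pcsk1 from 0.12 to 0.21, Cpe 1439437_x_at from -0.25 to -0.012, Scg5 from 0.38 to 0.53 and Cpe 1415949_at from 0.40 to 0.53. The difference between the Cpe probe sets ranged from 0.42 to 0.78 without single arrays. Whether the replicate numbers pair the arrays was not settled, and the labels do not say. Deviations of like-numbered arrays correlated at 0.58 for replicate 1 and 0.56 for replicate 3, above every unlike pair. For replicate 2 the correlation was 0.03, and miR-124a-2 replicate 2 correlated best with empty vector replicate 1.

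Over all probe sets, the count of 121 became 673 with a block by replicate number, 510 by array set and 340 by poly-A split. It was 39 with median centring, 268 with quantile normalization, 244 with cyclic loess, 218 with an intensity trend, 229 with robust estimation, 61 with at least 2-fold and 0 at 0.01. It was 0 with replicates 2 and 3 alone (3730 at an unadjusted p under 0.05) and 0 to 356 without single arrays. With the replicate number as a block, 1 neuropeptide precursor probe set passed (Gnas 1421740_at), 3 of the convertase list, all Cpd (1455009_at, 1418019_at and 1434547_at, adjusted p = 0.0439, 0.0436 and 0.0464), and 5 of the vesicle list. Of the convertase list, 2 passed with the array set, 1 with quantile normalization, cyclic loess or the brightest probe set per gene, and 0 to 2 without single arrays. Of the vesicle list, 4 passed with the poly-A split and 1 with the mean of probe sets. From that list 0 passed with median centring, replicates 2 and 3 alone, 0.01 or 2-fold, and 0 to 1 without single arrays. The causes were not tested. Dim signal limits Pcsk1.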
